A study of Arabidopsis thaliana with 9 samples.

Results

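Leaves of Arabidopsis thaliana plants carrying the stronger combination of atxr6 alleles were compared with wild-type leaves over all expressed genes. The mutant, here hyp/c-1, is labelled atxr5;atxr5;atxr6hyp;atxr6c-1: the atxr5 allele on both chromosome copies, and atxr6hyp on one copy with atxr6c-1 on the other. The wild type (WT) is labelled Col. The labels name the alleles and do not describe their lesions. The comparison used 3 hyp/c-1 and 3 WT libraries, 6 of the 9 in the series. The other 3, labelled atxr5;atxr5;atxr6hyp;atxr6hyp and here hyp/hyp, entered the estimate of spread and give side-by-side values. Both mutants carry the atxr5 allele on both copies, so no group isolates an atxr6 allele. All plants were 3 weeks old and were kept at 22 °C, with a day of 16 h and a night of 8 h. A mean of at least 1 TPM (an abundance measure, reads scaled by gene length and library total) over the 6 libraries kept 17611 of 27655 genes, and ATXR6 was kept whatever its mean, which gave 17612 tested genes.

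ATXR5 and ATXR6 are plant-specific enzymes that place a single methyl group on lysine 27 of histone H3, on the H3 variant that is built into chromatin during DNA replication. The mark is enriched in heterochromatin around the centromeres, where the enzymes are known to keep transposons silent and to prevent extra rounds of DNA replication. In plants, broken or stalled DNA is reported to the transcription factor SOG1, which switches on repair genes and brakes on cell division. The series asks why hyp/c-1 plants develop less normally than hyp/hyp plants.

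The 6 libraries held 28637743 to 38685702 reads, and 3 reads in a gene of 2000 bp, taken as the detection floor, came to 0.0825 to 0.109 TPM. WT libraries lay closer to one another than hyp/c-1 libraries did: on the log2(TPM + 1) scale the median SD of a gene over 3 libraries was 0.0852 in WT and 0.163 in hyp/c-1. The first principal component of the 6 libraries, with 67.2% of the variance, held WT at -30.2, -31.2 and -25.7 and hyp/c-1 at 28.1, 24 and 35. The second, with 15.9%, spread hyp/c-1 replicates 1, 2 and 3 over -24.5, -3.04 and 24.4. ATXR5 was at 4.24, 4.38 and 4.23 TPM in WT and 1.68, 1.7 and 1.53 TPM in hyp/c-1. ATXR6 was at 1.22, 1.35 and 1.43 TPM in WT and 0.0268, 0 and 0.0667 TPM in hyp/c-1, so that both targeted genes were lower in every hyp/c-1 library than in any WT library. Leaf mesophyll markers summed to 62020 to 63469 TPM in WT and 52569 to 66385 TPM in hyp/c-1. The sums were 379 to 400 against 419 to 674 TPM for phloem, 31.6 to 41.5 against 53.9 to 63.6 for xylem, 63.1 to 73.5 against 51.6 to 63.9 for guard cells and 40.9 to 60.9 against 69.9 to 139 for pollen and flower. The 6 root markers summed to 14.8 to 16 TPM in WT and 18.5 to 31.1 TPM in hyp/c-1, with EXPA7 and EXPA18 at 0 in all 6 libraries. Of the meristem markers CLV3 and WUS were at 0 in all 6 libraries. In whole leaves, fewer cells of a type and less RNA per cell cannot be told apart.

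In hyp/c-1, 563 genes passed a limma test at an adjusted p-value under 0.05 with a log2 difference of at least 1 in size, 3.2% of those tested. Most were higher: 456 genes rose (2.59% of those tested) and 107 fell (0.608%), so that 81% of the calls were higher. With the adjusted p-value alone, 1962 genes were higher (11.1%) and 1635 lower (9.28%), and the higher share was 54.5%. The larger the change, the more one-sided the calls were: 82 genes rose and 8 fell by at least 2 on the log2 scale, and 21 rose and 0 fell by at least 3. The genes that rose were weakly expressed in WT, with a median of 3.2 TPM against 14 TPM over all tested genes, and 107 of them reached the expression minimum only through the hyp/c-1 libraries. Those that fell had a median of 12.1 TPM in WT, and 15 of them passed only through WT. In 560 of the 563 called genes the 3 hyp/c-1 values did not overlap the 3 WT values, beside 38.3% of all tested genes. The calls rest on the same values, so a lack of overlap in called genes, here and below, is description and no further support. Genes with products annotated as uncharacterized or hypothetical made up 7.31% of the tested genes, 13.8% of the genes that rose and 11.2% of those that fell.

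**Figure D1:**
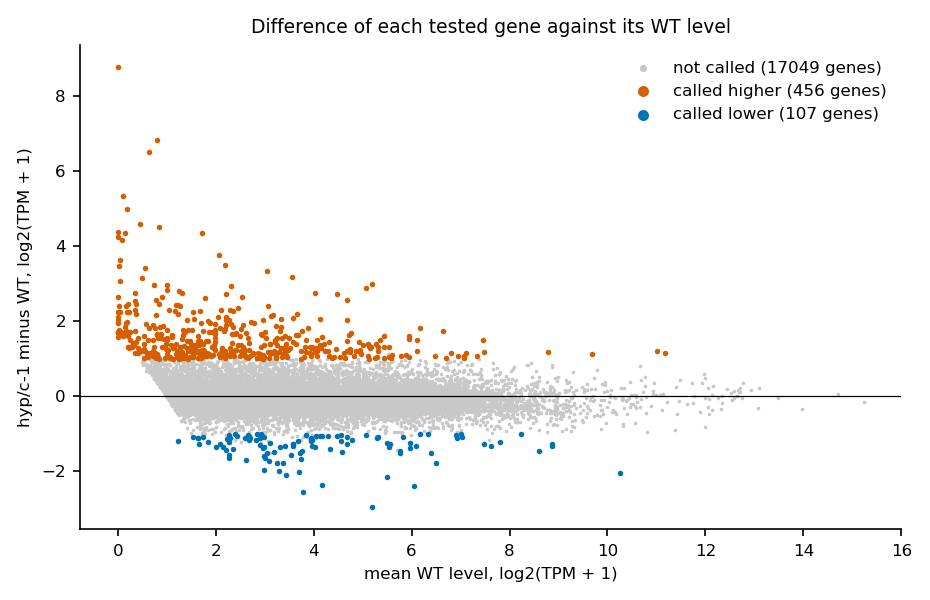
Each point is 1 of 17612 tested genes. The horizontal axis is the mean WT level and the vertical axis the difference of hyp/c-1 from WT, both on the log2(TPM + 1) scale. The 456 genes called higher reach far above the cloud at low WT levels, and the 107 called lower stay above -3.

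More genes were read only in hyp/c-1 than only in WT. Of 27655 genes, 5568 had 0 reads in all 3 WT libraries, and 87 of these had at least 4 reads in every hyp/c-1 library. In the other direction, 4686 genes had 0 reads in all 3 hyp/c-1 libraries, and 1 of them had at least 4 reads in every WT library; hyp/c-1 replicate 1 was the deepest library. AT1G32570, a gene with an uncharacterized product, was at 0.079, 0.0849 and 0.27 TPM in WT and 44, 32.2 and 31 TPM in hyp/c-1, and so at least 141-fold higher. HDG4, a homeodomain gene of the GLABROUS family chosen after its values were seen, was at 0, 0 and 0.0236 TPM in WT and 4.2, 2.95 and 2.53 TPM in hyp/c-1, and so at least 48.6-fold higher. Neither gene's values in the genotypes overlap. AT5G60250, which encodes a RING finger protein of the C3HC4 type, rose from 0.216, 0.393 and 0.494 TPM to 34.5, 28.5 and 32.9 TPM, 86.9-fold in the means (a log2 difference of 4.59, SE 0.11, limma adjusted p = 3.83e-09). AT3G29639, uncharacterized, rose from 0.67, 0.864 and 0.816 TPM to 36.2, 33.2 and 51.6 TPM (4.51, SE 0.22, adjusted p = 7.25e-07). The 8 largest rises also included AT2G11778, AT2G18193 and KCS17, at 8.77, 6.84 and 5.35, SMR7 below, and AT4G09355, whose annotated span of 27 bp makes its level unreliable.

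Genes that lie near the gene-poorest 1 Mb window of each chromosome, a stand-in for the centromere, made up a larger share of the genes that rose. Within 3 Mb of those windows 72 of 1475 tested genes rose (4.88%) and 1 fell (0.0678%). Farther out, 384 of 16046 rose (2.39%) and 105 fell (0.654%). The difference in shares was smaller among genes with a WT mean of at least 1 TPM, where 39 of 1422 rose within 3 Mb (2.74%) and 310 of 15762 outside (1.97%). On chromosomes 1 to 5 the near shares were 4.15%, 5.36%, 5.82%, 4.85% and 4.48%, each above the far share of the same chromosome, which ran from 2.06% to 2.87%. The share of genes that fell was lower near the windows under both expression minimums. Counts by position were not tested.

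A part of the DNA damage response genes rose. The 4 lists cover division arrest, homologous recombination, end joining with poly(ADP-ribose) polymerases, and replication protein A with nucleotide supply. Of their 53 tested genes 18 rose and 0 fell, beside 2.59% of all tested genes that rose. In the arrest and recombination lists 5 and 3 tested genes passed the expression minimum only through hyp/c-1. Rises among such genes are no support, and the 18 include some of them, such as SMR7 and NAC044. The SOG1 recognition motif, CTTNNNNNNNAAG on either strand, lay in the 250 bases before the annotated start of 6 of these 18 genes (33.3%) and of 8 of all 53 (15.1%), beside 9.7% of 27431 promoters and 11.4% of the promoters of all genes that rose. SMR7, NAC044, PARP2, PARG2 and GR1 (AT3G52115) were among them. The other 12 called genes had no such letters in this window. A match is a description of sequence and not a binding site. The promoters of 3 genes with the motif are shown because these genes stand for arrest (SMR7, NAC044) and damage signalling (PARP2). They come from the RefSeq assembly TAIR10.1, SMR7 from chr3:10231568-10231817, minus strand, NAC044 from chr3:228825-229074, plus strand and PARP2 from chr4:1049516-1049765, plus strand. Capitals mark the motif.
SMR7: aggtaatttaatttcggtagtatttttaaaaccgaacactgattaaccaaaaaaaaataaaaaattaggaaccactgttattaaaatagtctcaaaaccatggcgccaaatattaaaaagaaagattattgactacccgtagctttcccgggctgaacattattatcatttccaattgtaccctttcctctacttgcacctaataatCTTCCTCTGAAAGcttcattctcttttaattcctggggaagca
NAC044: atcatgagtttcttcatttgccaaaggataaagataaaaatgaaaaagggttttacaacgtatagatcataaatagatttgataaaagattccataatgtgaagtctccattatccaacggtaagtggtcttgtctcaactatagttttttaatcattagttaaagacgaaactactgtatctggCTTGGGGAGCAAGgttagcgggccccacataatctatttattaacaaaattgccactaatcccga
PARP2: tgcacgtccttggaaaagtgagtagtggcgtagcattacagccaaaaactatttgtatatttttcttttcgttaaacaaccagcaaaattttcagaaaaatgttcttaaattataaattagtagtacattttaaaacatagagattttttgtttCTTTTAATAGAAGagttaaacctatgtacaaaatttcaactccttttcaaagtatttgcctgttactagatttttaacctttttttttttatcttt

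Several genes that stop cell division rose. Of 9 tested genes for arrest after DNA damage 5 rose and 0 fell, beside a median of -0.02 over all tested genes. The list median of 1.63 is no support, since 5 of the 9, among them all called genes but KRP6, reached the expression minimum only through the hyp/c-1 libraries. SMR7, an inhibitor of cyclin-dependent kinases, rose by 6.52. CYCB1;1, a B-type cyclin that accumulates in damaged cells held before division, was at 0.413, 0.5 and 0.295 TPM in WT and 12, 11.3 and 11.2 TPM in hyp/c-1 (a log2 difference of 3.16, SE 0.1, adjusted p = 3.21e-08). KRP6, an inhibitor of the same kinases from another family, was at 11.2, 11.6 and 11.4 TPM in WT and 39.5, 38.7 and 34.2 TPM in hyp/c-1 (1.63, SE 0.08, adjusted p = 8.31e-07). Neither gene's libraries overlapped between genotypes. KRP6 stands apart from the separate list of endoreduplication and KIP-related inhibitors, where 0 of 15 tested genes were called, with a median of 0.02. NAC085 and NAC044, relatives of SOG1 that act below it to stop the cycle, rose by 2.47 and 1.96. SOG1 itself was at 10.5, 11 and 11.7 TPM in WT and 12, 11.4 and 8.75 TPM in hyp/c-1 (-0.05, adjusted p = 0.803). ATM, the kinase that activates SOG1 after double-strand breaks, was at -0.16 (adjusted p = 0.452). Values of SOG1 and ATM overlapped between genotypes.

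Among repair genes, 7 of 21 tested members of the homologous recombination list rose and 0 fell, with a median of 0.12. Of the 21, 3 passed the expression minimum only through hyp/c-1, GMI1 among them. XRI1, needed for repair in meiosis and induced by X-rays, went from 3.46, 3.76 and 3.51 TPM in WT to 54.8, 43.9 and 55.7 TPM in hyp/c-1 (a log2 difference of 3.51, SE 0.11, adjusted p = 3.01e-08). BRCA1, which directs broken ends to recombination, went from 2.56, 2.3 and 2.43 TPM to 20.7, 20.7 and 19.1 TPM (2.62, SE 0.08, adjusted p = 3.27e-08). XRI1 and BRCA1 rose with no overlap of libraries. GMI1, ATRAD17, GR1 (AT3G52115) and SYN2 rose by 3.42, 1.66, 1.49 and 1.04. GMI1 lies at 8251220 on chromosome 5, near ATXR6 at 8295110, and a part of this position was not tested. In the end joining and PARP list 3 of 10 tested genes rose, with a median of 0.03, and all 3 handle poly(ADP-ribose), a chain laid on proteins at DNA breaks. PARP2 (AT4G02390) went from 1.91, 2.4 and 2.59 TPM to 72.2, 66 and 62.5 TPM, 29.1-fold in the means (4.37, SE 0.1, adjusted p = 3.83e-09). PARP1 (AT2G31320) rose by 1.61, and PARG2, which removes the chain, by 1.24.

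A few genes of the replication protein A and nucleotide supply list rose. Of 13 tested genes 3 were called higher (23.1%, beside 2.59% of all tested genes) and 0 lower, with a median of 0.07. Differences were positive in 8 of the 13, and the lowest was -0.55. TSO2, a small subunit of ribonucleotide reductase, was at 36.6, 40.6 and 28.7 TPM in WT and 275, 268 and 319 TPM in hyp/c-1 (a log2 difference of 3.0, SE 0.12, adjusted p = 2.47e-07). TK1a, a thymidine kinase, was at 24.4, 26.4 and 22.9 TPM in WT and 161, 157 and 134 TPM in hyp/c-1 (2.57, SE 0.09, adjusted p = 9.82e-08). RPA1E, a large subunit of the protein that coats single-stranded DNA, rose by 2.21. All 3 were non-overlapping. The hyp/hyp libraries, compared with the same WT controls, gave 404 higher calls (2.29%) and 91 lower calls (0.517%) overall. In the 4 lists hyp/hyp had 5, 6, 3 and 3 genes called higher than WT, and no member was called between hyp/c-1 and hyp/hyp, a contrast with 90 calls in all (0.511%). The largest of the 18 differences between the mutants, in NAC044, was 0.42 (adjusted p = 0.11), which does not show that the genotypes were alike.

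**Figure D2:**
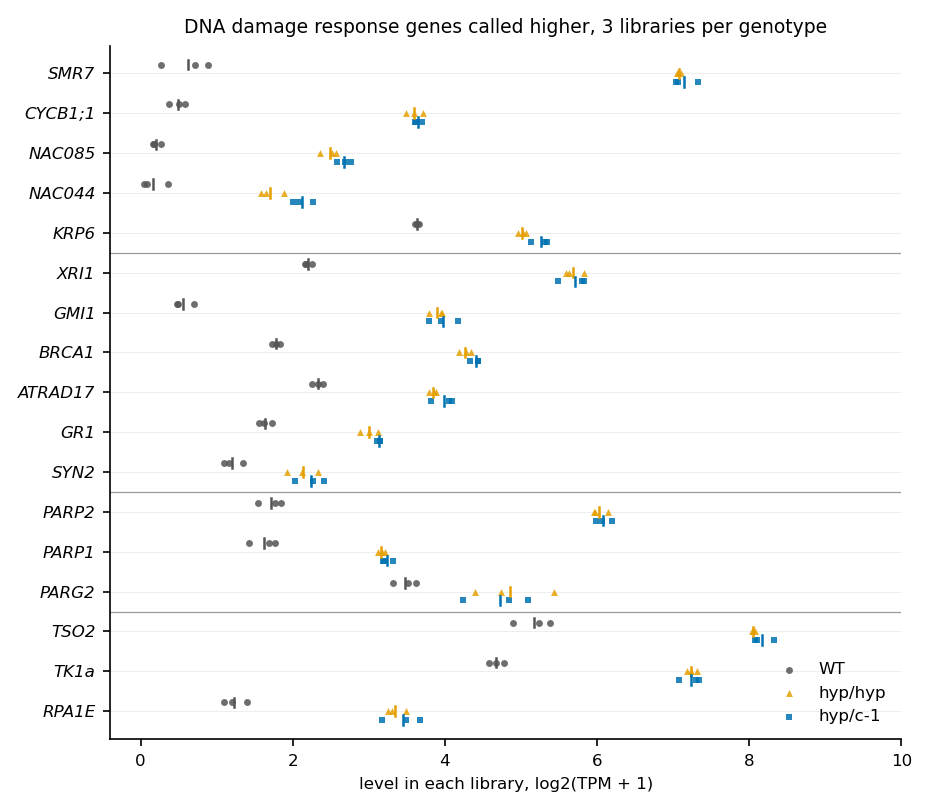
Levels of 17 of the 18 called DNA damage response genes in each library, on the log2(TPM + 1) scale, with 3 points per genotype and a bar at each mean; lines part the 4 lists. Every hyp/c-1 point lies to the right of the WT points of its gene, and the hyp/hyp points lie close to those of hyp/c-1.

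The listed genes of DNA replication and mitosis were not called. Of 23 tested replication genes (origin licensing, helicase, sliding clamp, polymerase alpha, chromatin assembly) 0 passed either way, with a median of -0.33 and a range from -0.48 to 0.21. In 15 of the 23 the hyp/c-1 values all lay below the WT values, beside 19.4% of all tested genes. On the lower side 7 had an adjusted p-value under 0.05, beside 9.28%. MCM2, a subunit of the replicative helicase, was at 7.54, 8.76 and 8.08 TPM in WT and 5.46, 5.99 and 7.4 TPM in hyp/c-1 (-0.33, adjusted p = 0.0596). The list leaves out the other replicative polymerases, and 2 of their genes, chosen after their values were seen, rose: TIL1, the catalytic subunit of polymerase epsilon, by 1.06 (SE 0.12, adjusted p = 0.000332), and POLD4, a small subunit of polymerase delta, by 1.4 (SE 0.1, adjusted p = 1.48e-05). Of 19 tested mitosis genes 0 were called, with a median of 0.27, and in 9 the hyp/c-1 values all lay above WT, beside 18.9% of all tested genes. CYCB1;1 is not in that list, where the differences of B-type cyclins ran from -0.25 for CYC1BAT to 0.52 for CYCB2;3. The core of the mitosis-specific activator element, AACGG on either strand, lay before 11 of the 19 mitosis genes (57.9%), and before 6 of the 18 called DNA damage genes (33.3%), CYCB1;1 among them, beside 20.6% of all promoters. Of 22 genes of DNA methylation and silencing, 0 were called and the median was -0.04. Histone genes gave 0 calls of 20 and a median of -0.17. Markers of dividing cells summed to 6.66 to 8.45 TPM in WT and 8.75 to 9.05 TPM in hyp/c-1, and their part in these values was not tested.

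Most morning clock genes rose, while many day and evening clock genes had negative differences. Of 10 tested morning clock genes, 2 of which passed the minimum only through hyp/c-1, 7 rose and 1 fell, with a median of 1.36. The share called was 80%, beside 3.2% of all tested genes. Of 15 tested day and evening clock genes 1 rose and 2 fell, with a median of -0.63. On the lower side 8 had an adjusted p-value under 0.05, beside 9.28% of all tested genes. The labels give no hour of harvest, and whether all plants were collected at the same hour cannot be told from them. The evening element AAAATATCT, the letters that morning MYB factors such as CCA1 read before evening genes, lay on either strand in the 250 bases before 5 of the 15 day and evening genes (33.3%: TOC1, BOA, PCL1, FKF1 and PRR5), before 1 of the 10 morning genes (EPR1), and before 2.36% of all promoters. The promoters of TOC1 (chr5:24674713-24674962, plus strand), BOA (chr5:24003638-24003887, plus strand) and EPR1 (chr1:6308244-6308493, minus strand; RefSeq TAIR10.1) are shown because they hold the element before genes with differences below 0 and above 0. Capitals mark it, on the reverse strand as AGATATTTT.
TOC1: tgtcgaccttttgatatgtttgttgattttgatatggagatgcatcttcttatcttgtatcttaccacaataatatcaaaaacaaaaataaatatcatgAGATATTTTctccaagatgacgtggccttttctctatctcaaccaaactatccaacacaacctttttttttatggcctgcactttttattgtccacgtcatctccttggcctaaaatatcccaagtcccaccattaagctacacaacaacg
BOA: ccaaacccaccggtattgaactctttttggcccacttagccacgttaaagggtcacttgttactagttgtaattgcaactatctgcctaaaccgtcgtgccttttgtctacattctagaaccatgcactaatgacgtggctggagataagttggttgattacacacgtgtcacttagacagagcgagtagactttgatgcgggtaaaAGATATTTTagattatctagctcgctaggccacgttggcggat
EPR1: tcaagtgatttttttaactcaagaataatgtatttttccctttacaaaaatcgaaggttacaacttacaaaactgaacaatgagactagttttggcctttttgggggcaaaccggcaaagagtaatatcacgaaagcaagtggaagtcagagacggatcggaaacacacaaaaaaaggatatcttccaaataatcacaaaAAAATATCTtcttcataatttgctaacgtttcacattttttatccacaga

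CCA1, a morning MYB factor at the centre of the clock, was at 1.21, 0.992 and 2.26 TPM in WT and 13.3, 13.7 and 20 TPM in hyp/c-1 (a log2 difference of 2.76, SE 0.24, adjusted p = 5.51e-05). LHY, its partner, missed the expression minimum with 0.236, 0.328 and 0.349 TPM in WT and 1.67, 1.31 and 1.59 TPM in hyp/c-1. LNK3 and LNK1, co-activators that work with the morning MYB factors, rose by 2.12 (SE 0.21, adjusted p = 0.000122) and 1.71 (SE 0.24, adjusted p = 0.00135). The morning factors were thus high in all 3 hyp/c-1 libraries, and CCA1 and LHY did not overlap between genotypes. RVE8, EPR1, LNK2 and LNK4 rose by 1.56, 1.43, 1.28 and 1.14. RVE2, another MYB factor of the family, went the other way, from 11, 15.4 and 11.1 TPM to 3.84, 3.21 and 4.59 TPM (-1.46, SE 0.19, adjusted p = 0.000692). The G-box CACGTG lay before 4 of the 10 morning genes (40%: CCA1, LNK3, RVE1 and RVE2) and before 6.49% of all promoters.

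PRR9, the earliest of the pseudo-response regulators to peak in the day, rose with the morning genes, from 1.05, 1.15 and 1.58 TPM to 10.3, 6.19 and 14.7 TPM (a log2 difference of 2.27, SE 0.24, adjusted p = 0.000239). TOC1, the evening repressor of CCA1, fell from 119, 122 and 116 TPM to 66.6, 66.6 and 42.7 TPM (-1.04, SE 0.17, adjusted p = 0.0024), with no overlap. Its call ended without hyp/c-1 replicate 3 (-0.83) and with array weights (-0.85). The members of the evening complex stayed short of the fold required: ELF4 was at 213, 234 and 204 TPM in WT and 147, 122 and 109 TPM in hyp/c-1 (-0.79, adjusted p = 0.0023), ELF3 at -0.66 (adjusted p = 0.00522), and PCL1, also known as LUX, at -0.83 (adjusted p = 0.0031). BOA and PRR3 were at -0.94 and -0.95 (adjusted p = 0.0138 and 0.00285). JMJD5, a histone demethylase-like protein of the clock, fell by 2.39 (SE 0.33, adjusted p = 0.00117). GI, a large evening protein, was at -0.1 (adjusted p = 0.625). COR27, a cold gene under clock control, fell by 1.77 (adjusted p = 0.00349). The median difference from WT by hyp/c-1 replicate was 1.21, 1.27 and 1.67 over morning genes and -0.37, -0.6 and -0.84 over day and evening genes, so replicate 3 lay farthest out in both lists.

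In hyp/hyp, set against the same WT controls, the medians were 0.74 and -0.14, with 2 morning genes called higher and 1 lower, and 1 day or evening gene called higher and 1 lower. CCA1 averaged 8.94 TPM there and TOC1 90.9 TPM. No clock gene was called between hyp/c-1 and hyp/hyp: the difference was 0.75 for CCA1 (adjusted p = 0.0978), 0.95 for LNK3 (adjusted p = 0.0436) and -0.64 for TOC1 (adjusted p = 0.0646). LNK3 passed the p-value and not the fold. CDF1, a cycling DOF factor that represses flowering in the morning and was chosen after its values were seen, rose from 4.93, 4.67 and 5.27 TPM in WT to 8.14, 13.2 and 16.3 TPM in hyp/c-1 (1.14, adjusted p = 0.0045) and was also higher than in hyp/hyp (1.06, SE 0.21, adjusted p = 0.037).

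**Figure D3:**
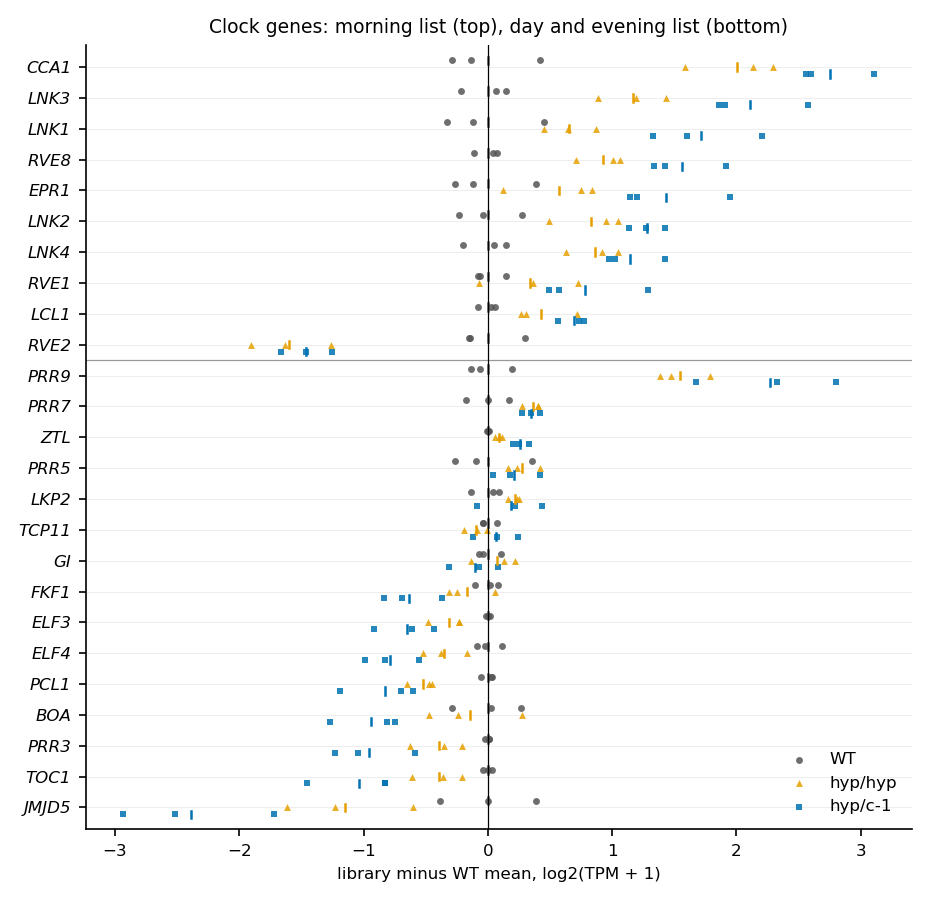
Each tested clock gene in each library as the difference from its WT mean on the log2(TPM + 1) scale, 3 points per genotype with a bar at the mean. Morning genes (top) sit to the right of 0 in hyp/c-1 except RVE2, and TOC1, BOA, PRR3, PCL1, ELF4 and ELF3 (bottom) sit to the left.

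Genes for protein folding in the endoplasmic reticulum lay higher across the list. All 17 tested genes of the list had positive differences, from 0.15 to 2.65 with a median of 0.71, and 3 of them passed the minimum only through hyp/c-1. The hyp/c-1 values lay wholly above WT in 16 of the 17, beside 18.9% of all tested genes. On the higher side 14 had an adjusted p-value under 0.05, beside 11.1%. Past the fold required 4 rose (23.5%, beside 2.59%). BIP3, the strongly inducible member of the BiP chaperones, went from 0.879, 0.817 and 0.95 TPM in WT to 9.64, 10.5 and 12.4 TPM in hyp/c-1 (a log2 difference of 2.65, SE 0.12, adjusted p = 3.22e-07). NAC103, a transcription factor induced when misfolded protein builds up, went from 0.375, 0.144 and 0.367 TPM to 6.26, 7.23 and 5.13 TPM (2.47, SE 0.16, adjusted p = 7.61e-06). Both rose with no overlap, from levels that met the minimum only through hyp/c-1. TIN1, named for its induction by tunicamycin, and ATERDJ3A, a DnaJ co-chaperone, rose by 1.58 and 1.26. The abundant chaperone BIP1 was at 76.6, 74 and 79 TPM in WT and 144, 138 and 166 TPM in hyp/c-1 (0.95, adjusted p = 0.000285), and BIP2 was at 0.93. BIP1 and BIP2 are near-identical, and their reads may be shared. CNX1, the calnexin that retains unfolded glycoproteins, was at 0.66 (adjusted p = 0.00144). BZIP60, a transcription factor of this stress response, was at 0.33 (adjusted p = 0.537). In hyp/hyp the list median was 0.52 with 3 calls. BIP3 averaged 5.48 TPM there, 0.87 below hyp/c-1 (adjusted p = 0.0188), which did not reach the fold required.

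Cytosolic heat shock genes were raised in part: 4 of 31 tested rose and 0 fell (12.9%, beside 3.2% of all tested genes called). The median was 0.18, and 2 of the 31 passed the expression minimum only through hyp/c-1, HSP17.4 among them. HSP70 (AT3G12580) was at 2.94, 4.62 and 4.95 TPM in WT and 9.41, 9.58 and 13.8 TPM in hyp/c-1 (a log2 difference of 1.21, SE 0.18, adjusted p = 0.00172). HSP17.4, a small heat shock protein, and FKBP65, a heat-induced folding enzyme, rose by 1.32 and 1.19, and HSP90.1 by 1.11. Each of the 4 had higher values in all 3 hyp/c-1 libraries than in any WT library. HSP90.1 lost its call without WT replicate 1 (0.99) or hyp/c-1 replicate 3 (0.96). In hyp/hyp 0 genes of this list were called higher than WT.

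Genes for glucosinolates, the sulfur-rich defence compounds of the cabbage family, had positive differences in most of the list. Of 23 tested genes 4 rose and 0 fell (17.4%, beside 3.2% of all tested genes called), and the median was 0.73. In 19 the hyp/c-1 values lay wholly above WT, beside 18.9% of all tested genes. On the higher side 17 had an adjusted p-value under 0.05, beside 11.1%. MYB29, a transcription factor of the methionine-derived branch, was at 15.2, 10.8 and 17 TPM in WT and 33.9, 30.6 and 44.3 TPM in hyp/c-1 (a log2 difference of 1.29, SE 0.24, adjusted p = 0.00459). IPMI1, an isomerase subunit of the methionine chain-elongation cycle, was at 57.7, 49.7 and 66.5 TPM in WT and 115, 99.4 and 172 TPM in hyp/c-1 (1.11, SE 0.22, adjusted p = 0.00698). TGG2, a myrosinase that cuts glucosinolates when tissue is damaged, was at 805, 827 and 848 TPM in WT and 1931, 1927 and 1619 TPM in hyp/c-1 (1.14, SE 0.09, adjusted p = 2.53e-05). None of the 3 overlapped between genotypes. MYB76, the neighbour and relative of MYB29, rose by 1.06 (adjusted p = 0.0135). FMO GS-OX3, which oxidizes the side chain and was chosen after its values were seen, rose by 1.32 (adjusted p = 0.00704). The calls of IPMI1 and MYB76 ended without hyp/c-1 replicate 3 (0.88 and 0.94) and with array weights (0.82 and 0.85), and that of MYB76 also ended without WT replicate 2 (0.85) and, just under the fold required, under quantile normalization.

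Genes of the methionine-derived branch also differed between hyp/c-1 and hyp/hyp. In hyp/hyp the glucosinolate list had a median of 0.14 against WT and 1 call, and 5 of its genes were called higher in hyp/c-1 than in hyp/hyp, where 0.227% of tested genes were called higher and 0.284% lower. MYB29 averaged 16.1 TPM in hyp/hyp, 1.15 below hyp/c-1 (SE 0.24, adjusted p = 0.0386). IPMI1 differed by 1.15 (adjusted p = 0.0362) and IPMI2 by 1.1 (adjusted p = 0.0234). CYP79F1 and CYP79F2, which start the core structure from elongated methionine, differed by 1.13 and 1.08 (adjusted p = 0.0334 and 0.0245). These neighbouring genes are alike in sequence and may share reads. Against WT, CYP79F1 was at 113, 95 and 139 TPM in WT and 212, 205 and 255 TPM in hyp/c-1 (0.95, adjusted p = 0.0113). MYB51, a regulator of the tryptophan-derived branch, was lower in hyp/c-1 than in hyp/hyp (-1.05, adjusted p = 0.0424), with a difference from WT of 0.01 (adjusted p = 0.982).

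**Figure D4:**
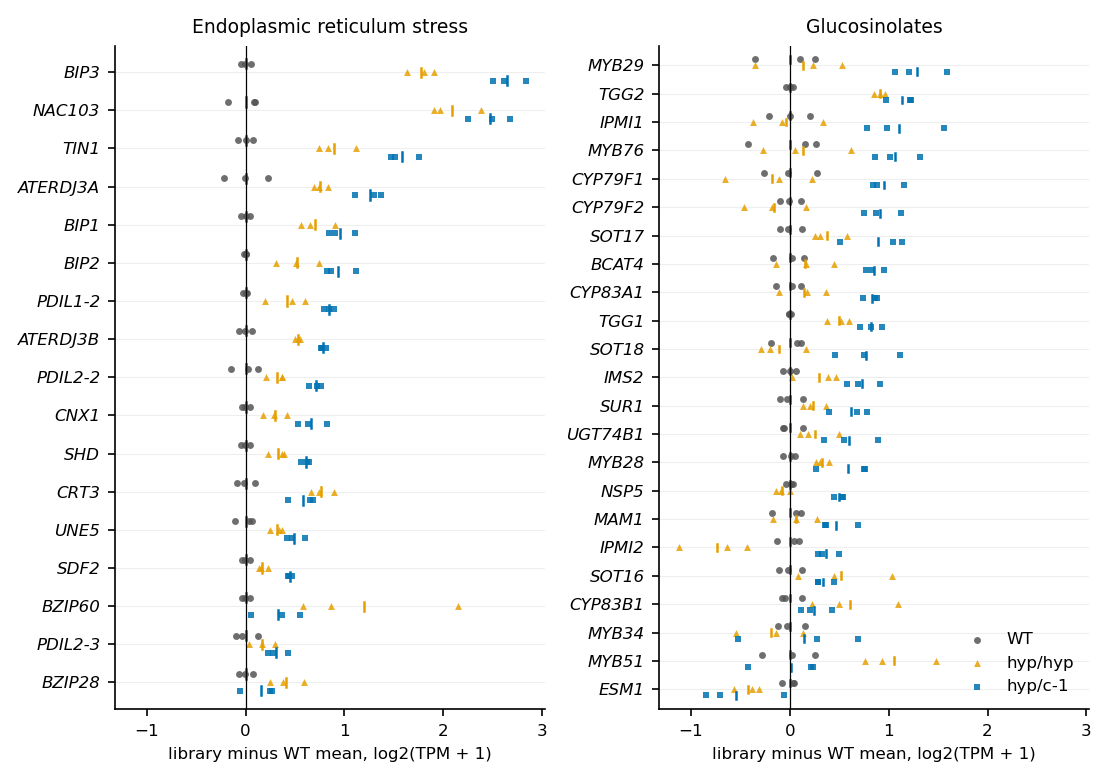
Each tested gene of the endoplasmic reticulum stress list (left) and the glucosinolate list (right) in each library, as the difference from its WT mean on the log2(TPM + 1) scale, with 3 points per genotype and a bar at the mean. On the left hyp/hyp points often lie between WT and hyp/c-1, while on the right many hyp/hyp points lie near 0 and hyp/c-1 points mostly to the right of 0.

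Sulfur assimilation, which feeds glucosinolates and glutathione, moved in the same direction. In the phosphate, nitrate and sulfur list 5 of 28 tested genes rose and 0 fell (17.9%, beside 3.2% of all tested genes called). The median was 0.33, and 4 of the 5 belong to sulfur. The list leaves out IPS1 and AT5G03545, annotated to phosphate starvation and chosen after their values were seen. They were called lower, at -1.1 and -1.05 (adjusted p = 0.011 and 0.0499). APR1, a reductase that commits sulfate to cysteine synthesis, was at 44, 41.4 and 51.3 TPM in WT and 96.8, 76 and 115 TPM in hyp/c-1 (a log2 difference of 1.04, SE 0.15, adjusted p = 0.00165). APR2, its main partner in leaves, rose by 1.03 (adjusted p = 0.000106). LSU2 and LSU4, small proteins induced by low sulfur, rose by 1.16 and 1.23, and as relatives in 1 gene cluster they may share reads. LSU2 and LSU4 lie at 8443279 and 8440601 on chromosome 5, near the mutated gene ATXR6 at 8295110. Whether sequence inherited with the atxr6 alleles plays a part was not tested. The hyp/hyp libraries gave 0 calls in this list, and APR1 averaged 53.4 TPM there. The calls of APR1 ended without WT replicate 2 (0.98), without hyp/c-1 replicate 3 (0.9) and with array weights (0.78), and LSU2 ended with array weights (0.92). NRT1.5, which loads nitrate into the xylem, was at 3.32, 3.39 and 3.47 TPM in WT and 10.5, 8.49 and 10.3 TPM in hyp/c-1 (1.28, SE 0.11, adjusted p = 6.59e-05). In the iron list 2 of 18 rose and 0 fell, with a median of 0.31. NAS3, which makes the metal chelator nicotianamine, was at 5.71, 3.5 and 5.4 TPM in WT and 21.7, 17.1 and 23.9 TPM in hyp/c-1 (1.91, SE 0.16, adjusted p = 5.1e-05). Values of NRT1.5 and NAS3 did not overlap between genotypes, and xylem markers, at 31.6 to 41.5 TPM in WT and 53.9 to 63.6 TPM in hyp/c-1, moved the same way; their part was not tested.

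Chlorophyll synthesis held 4 higher calls and 0 lower calls among 17 tested genes (23.5%, beside 3.2% of all tested genes called), while its median was 0.04. CH1, the oxygenase that makes chlorophyll b, was at 62, 48 and 71.7 TPM in WT and 159, 193 and 202 TPM in hyp/c-1 (a log2 difference of 1.6, SE 0.2, adjusted p = 0.000571). GLK2, a transcription factor for chloroplast development, was at 36.7, 32.4 and 46.8 TPM in WT and 107, 69.1 and 121 TPM in hyp/c-1 (1.31, SE 0.21, adjusted p = 0.00244). HEMA1, the committed enzyme of the pathway, rose by 1.17, and PORA, a light-sensitive reductase, by 1.15. Of 39 photosystem and light-harvesting genes 3 rose and 0 fell (7.69%, beside 3.2% of all tested genes called), with a median of 0.04. All 3 encode the LHCB2 antenna proteins that bind chlorophyll b. LHCB2.1 was at 2220, 1699 and 2250 TPM in WT and 4070, 4760 and 5361 TPM in hyp/c-1 (1.2, SE 0.2, adjusted p = 0.00313). LHCB2.2 and LHCB2.3 rose by 1.17 and 1.18, and LHCB2.1 and LHCB2.2 are near-identical and may share reads. The 3 LHCB2 genes and CH1 were higher in every hyp/c-1 library than in any WT library. The call of GLK2 ended with array weights (0.91) and that of PORA without hyp/c-1 replicate 3 (0.95).

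Some flavonoid genes were called. Of 13 tested genes 2 rose and 0 fell (15.4%, beside 3.2% of all tested genes called), with a median of 0.56. In 8 the hyp/c-1 values lay wholly above WT, beside 18.9% of all tested genes. On the higher side 7 had an adjusted p-value under 0.05, beside 11.1%. Only through hyp/c-1 did 1 of the 13 pass the expression minimum. PAP1 (AT1G56650), a MYB factor that turns on anthocyanin pigments, was at 0.468, 0.581 and 1.15 TPM in WT and 4.81, 3.85 and 4.33 TPM in hyp/c-1 (a log2 difference of 1.64, SE 0.2, adjusted p = 0.000571). TT4, chalcone synthase, was at 10.2, 8.73 and 12.3 TPM in WT and 47, 21.8 and 18.3 TPM in hyp/c-1 (1.29, SE 0.29, adjusted p = 0.0121). Both ranges were apart, with hyp/c-1 replicate 1 far above the others for TT4. Without that library TT4 was at 0.89, and without WT replicate 2 its adjusted p was 0.0543. GBSS1, which makes the amylose part of starch, rose from 3.98, 3.75 and 4.93 TPM to 18.5, 13.6 and 14.5 TPM (1.66, SE 0.14, adjusted p = 3.88e-05). It was the 1 gene called among 22 of the Calvin cycle and carbon list.

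Defence genes moved unevenly. Of 20 tested genes of salicylic acid defence 4 rose and 0 fell (20%, beside 3.2% of all tested genes called). The list median was 0.32. WRKY38, a WRKY factor of that pathway, was at 4.24, 3.81 and 6.14 TPM in WT and 13.5, 19 and 24.7 TPM in hyp/c-1 (a log2 difference of 1.79, SE 0.22, adjusted p = 0.000551). It averaged 4.84 TPM in hyp/hyp, 1.76 below hyp/c-1 (adjusted p = 0.0188). BGL2, a glucanase also known as PR2, rose from 59.4, 75.4 and 77.6 TPM to 294, 237 and 232 TPM (1.83, adjusted p = 5.6e-05). PR1, the standard reporter of the pathway, was at 70.2, 112 and 74.6 TPM in WT and 125, 118 and 131 TPM in hyp/c-1 (0.56, adjusted p = 0.0602). WRKY38 and BGL2 did not overlap between genotypes, and PR1 did not pass. EDS16, the main synthase for salicylic acid, and PBS3, the next enzyme, rose by 1.14 and 1.15, and PBS3 fell short without hyp/c-1 replicate 3 (0.99). Against the same WT controls hyp/hyp also had 4 genes of this list called higher, BGL2 and EDS16 among them, with a median of 0.47. Between the mutants 2 genes of the list were called, both higher in hyp/c-1. The W-box core TTGAC, read by WRKY factors, lay before 11 of the 20 (55%), before 50.9% of all genes that rose, 44.3% of those that fell and 44.9% of all promoters.

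Several cysteine-rich receptor kinases rose. The receptor-like kinase list does not hold every receptor gene. Of its 102 tested members 9 rose (8.82%, beside 2.59% of all tested genes) and 0 fell, with a median of 0.01. Of the 9, 8 are CRK genes on chromosome 4. Only through hyp/c-1 did 6 of the 102 pass the expression minimum, CRK37 among them, so rises among these 6 are no support. CRK36 was at 2.95, 3.76 and 3.92 TPM in WT and 16.4, 14.8 and 13.3 TPM in hyp/c-1 (a log2 difference of 1.8, SE 0.23, adjusted p = 0.000766). CRK37, its neighbour, rose by 1.88, and CRK7 and CRK6, from another cluster, rose by 1.85 and 1.69. Clustered CRK genes are similar and may share reads. In hyp/hyp, against the same WT controls, 10 genes of the receptor-like kinase list were called higher and 1 lower. CRK36, CRK37, CRK7 and CRK6 were at 2.17, 1.76, 1.94 and 1.84 there, and no gene of the list was called between the mutants. Of 100 NBS-LRR immune receptors 2 rose and 0 fell (2%, beside 2.59% of all tested genes that rose), with a median of 0.06. THI2.2, a thionin, rose by 1.32 and was also higher than in hyp/hyp (1.15, adjusted p = 0.021). The rapid stress factors gave 0 calls of 24 against WT with a median of -0.29, while hyp/hyp, set against the same WT controls, had a median of 0.8 and 6 higher calls. Of that list 3 genes were called lower in hyp/c-1 than in hyp/hyp. Jasmonate genes gave 0 calls of 26.

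Of the 107 genes that fell 33 were in any of the 60 lists, and some belong to the cell wall and surface. Of 20 tested xyloglucan endotransglucosylases, which cut and rejoin wall glucans, 0 rose and 4 fell, with a median of -0.28. XTH17 was at 9.14, 8.24 and 8.31 TPM in WT and 1.14, 3.55 and 1.27 TPM in hyp/c-1 (a log2 difference of -1.77, SE 0.27, adjusted p = 0.002). XTH19, a close relative, fell by 1.11 (adjusted p = 0.00211). XTH25 and XTH15 were at -1.25 and -1.26 (adjusted p = 0.0173 and 0.0206). XTH17 and XTH19 were lower in every hyp/c-1 library than in any WT library. The calls of XTH25 ended without WT replicate 1 or 2 (adjusted p = 0.0502 and 0.0698) and at -0.8 without hyp/c-1 replicate 3. Those of XTH15 ended without hyp/c-1 replicate 1 or 3 (adjusted p = 0.0636 and 0.0564) and at -0.89 without WT replicate 2. With array weights XTH25, XTH15 and XTH19 lay at -0.7, -0.73 and -0.82. The list was also low in hyp/hyp against the same WT, with a median of -0.51 and 6 lower calls.

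Of 33 tested fasciclin-like and other arabinogalactan proteins, sugar-rich proteins of the cell surface, 0 rose and 3 fell, with a median of -0.23. AGP7 was at 50.7, 48.9 and 38 TPM in WT and 13.1, 29.5 and 16.1 TPM in hyp/c-1 (a log2 difference of -1.26, SE 0.24, adjusted p = 0.00524). FLA13 was at 328, 291 and 288 TPM in WT and 138, 200 and 123 TPM in hyp/c-1 (-1.0, SE 0.18, adjusted p = 0.00451). Both were lower in all hyp/c-1 libraries, with replicate 2 nearest to WT. FLA13 lay at the fold threshold, and its call ended under 7 alternatives, among them without WT replicate 1 (-0.94), without hyp/c-1 replicate 1 (-0.94) and without hyp/c-1 replicate 3 (-0.86). AGP3 fell by 1.09 and was at -0.95 without WT replicate 2. AGP7 was at -0.72 with array weights. In wax and very-long-chain fatty acid synthesis 1 of 34 genes rose and 2 fell (8.82%, beside 3.2% of all tested genes called). The median was -0.32. On the lower side 11 had an adjusted p-value under 0.05, beside 9.28% of all tested genes. The gene that rose was KCS17, a fatty acid elongase at least 443-fold above WT. CER1, which makes wax alkanes, was at 12.5, 14 and 13.5 TPM in WT and 4.94, 6.34 and 6.75 TPM in hyp/c-1 (-1.04, SE 0.16, adjusted p = 0.00223). KCS12, of the same elongase family, was at 228, 228 and 213 TPM in WT and 83.4, 143 and 72.7 TPM in hyp/c-1 (-1.22, SE 0.21, adjusted p = 0.00349). Their libraries did not overlap. CER1 ended at -0.93 without hyp/c-1 replicate 1 and at -0.96 with array weights, and KCS12 at -0.72 with array weights.

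Expansins, which loosen the wall, went both ways, with 1 of 18 higher and 1 lower. EXPA8 was at 36.6, 40.2 and 50.2 TPM in WT and 88.9, 74.3 and 180 TPM in hyp/c-1 (a log2 difference of 1.32, SE 0.29, adjusted p = 0.0104). It rested in part on hyp/c-1 replicate 3, without which it was at 0.94, and it was at 0.91 with array weights. EXPA16 fell from 36.5, 38.5 and 32.1 TPM to 5.32, 4.03 and 2.33 TPM (-2.95, SE 0.23, adjusted p = 3.18e-05), with no overlap. SQP1, a squalene epoxidase of the sterol pathway, was at 13.8, 9.7 and 16.5 TPM in WT and 31.6, 35.6 and 52.4 TPM in hyp/c-1 (1.51, SE 0.33, adjusted p = 0.0102). SQP1 was also higher than in hyp/hyp, where it averaged 10.1 TPM (1.96, adjusted p = 0.0275). SQP1 lies at 8172300 on chromosome 5, near ATXR6 at 8295110, and a part of this position was not tested.

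Some hormone genes were called. Of 27 tested gibberellin and brassinosteroid genes 0 rose and 2 fell (7.41%, beside 0.608% of all tested genes called lower), with a median of -0.03. GASA1, a peptide gene under gibberellin and brassinosteroid control, fell from 1210, 1628 and 804 TPM in WT to 300, 343 and 216 TPM in hyp/c-1 (a log2 difference of -2.05, SE 0.24, adjusted p = 0.000384). DWF4, the rate-limiting hydroxylase of brassinosteroid synthesis, fell from 16.6, 16 and 16.6 TPM to 6.97, 9.19 and 6.19 TPM (-1.06, SE 0.12, adjusted p = 0.000332). Neither overlapped between genotypes. DWF4 was at -0.95 without hyp/c-1 replicate 3 and at -0.81 with array weights. Among 18 cytokinin genes 0 rose and 2 fell (11.1%), with a median of -0.12, and both are response regulators that damp the signal. RR16 fell from 12.1, 14 and 10.6 TPM to 3.51, 2.68 and 3.34 TPM (-1.66, SE 0.13, adjusted p = 3.06e-05). ARR15 fell by 1.07, but was at -0.99 without WT replicate 2, at -0.9 without hyp/c-1 replicate 1 and at -0.73 with array weights. In the auxin response and transport list 1 of 28 genes rose, IAA14 at 1.02 (adjusted p = 0.00325). That share, 3.57%, is near the 3.2% called over all tested genes. In the ethylene list 1 of 17 fell (5.88%), ETR2 at -1.07 (adjusted p = 0.0119). Without hyp/c-1 replicate 3 these calls ended, at 0.9 and -0.8. BZS1, a B-box factor that opposes brassinosteroid growth, was chosen after its values were seen. It fell from 5.73, 5.27 and 4.49 TPM to 1.04, 1.52 and 0.3 TPM (-1.7, adjusted p = 0.00075) and was lower than in hyp/hyp (-1.08, adjusted p = 0.0386).

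In the list of cold-regulated genes, which does not hold COR27, 1 of 13 tested fell and 0 rose, and the median was -0.37. On the lower side 6 had an adjusted p-value under 0.05, beside 9.28% of all tested genes. COR15B, which protects chloroplast membranes from freezing, was at 115, 119 and 127 TPM in WT and 52.6, 54 and 58.6 TPM in hyp/c-1 (a log2 difference of -1.11, SE 0.08, adjusted p = 2.04e-05). In hyp/hyp it averaged 75 TPM. In the abscisic acid and drought list 1 of 17 rose and 1 fell. P5CS1, which makes the compatible solute proline, rose from 24.1, 19.6 and 26.9 TPM to 44.4, 54.6 and 62.3 TPM (1.16, SE 0.16, adjusted p = 0.00117). HAI1, a phosphatase that damps the abscisic acid signal, was at 2.25, 3.1 and 2.45 TPM in WT and 1.13, 0.66 and 0.027 TPM in hyp/c-1 (-1.22, adjusted p = 0.0072), and at -0.93 without hyp/c-1 replicate 3. The values of COR15B, P5CS1 and HAI1 did not overlap between genotypes.

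Transcription factor families differed in how many members moved. MADS-box factors had 5 of 26 tested higher and 1 lower (23.1%, beside 3.2% of all tested genes called), with a median of 0.04. AT1G59920, AT5G35120 and AGL19 passed the minimum only through hyp/c-1. AT1G59930, on chromosome 1, was at 2.75, 3.4 and 3.37 TPM in WT and 44.8, 59.5 and 63.8 TPM in hyp/c-1 (a log2 difference of 3.76, SE 0.16, adjusted p = 2.95e-07). It averaged 26.4 TPM in hyp/hyp, 1.06 below hyp/c-1 (adjusted p = 0.0245). AT5G35120 was at 0.193, 0 and 0 TPM in WT and 15.8, 12.3 and 29.6 TPM in hyp/c-1, and so at least 30.9-fold higher. Both stood clear of WT. AT3G12510 rose by 1.9, and AGL19, an activator of flowering that Polycomb keeps silent, by 1.43. MAF5, a flowering repressor related to FLC, fell from 10.5, 13.3 and 12.2 TPM to 2.7, 1.86 and 2.07 TPM (-2.02, SE 0.16, adjusted p = 3.88e-05), and its neighbour MAF4 was at -0.96 (adjusted p = 0.000243); reads may be shared between them. Of the other 17 tested flowering time genes none was called.

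NAC factors had 8 of 44 tested higher and 1 lower (20.5%), with a median of 0.24, and NAC044, NAC085 and NAC103 above are 3 of the 8. ANAC087, which promotes cell death in the root cap, was at 1.46, 1.51 and 1.23 TPM in WT and 11.7, 15 and 8.94 TPM in hyp/c-1 (a log2 difference of 2.4, SE 0.16, adjusted p = 7.5e-06). NAC046, known as its close relative in that role and in leaf senescence, rose by 1.95, and NAC016, also linked to senescence, by 1.66. The list of chlorophyll loss and senescence itself gave 0 calls of 13 and a median of 0.01. WRKY factors had 3 of 44 higher and 0 lower (6.82%). WRKY50, which works with TGA factors at the PR1 promoter, was at 3.31, 4.54 and 3.68 TPM in WT and 19.8, 18.3 and 18.5 TPM in hyp/c-1 (2.04, SE 0.12, adjusted p = 4.49e-06). ANAC087 and WRKY50 did not overlap between genotypes. Of 154 F-box genes 6 rose and 0 fell (3.9%), near the 3.2% called over all tested genes. AT5G07610 led them, from 22.6, 23.5 and 17.3 TPM to 145, 151 and 135 TPM (2.72, SE 0.11, adjusted p = 2.95e-07). Of 102 cytochrome P450 genes 8 rose and 2 fell (9.8%), and of 39 UDP-glycosyltransferases 0 rose and 3 fell (7.69%). Ribosomal protein genes gave 1 call of 185, and genes of leaf polarity and growth, of the floral organs and meristem, and derived from transposons gave 0 calls of 31, 5 and 11. Of 20 seed storage and embryo genes 0 reached the expression minimum.

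**Figure D5:**
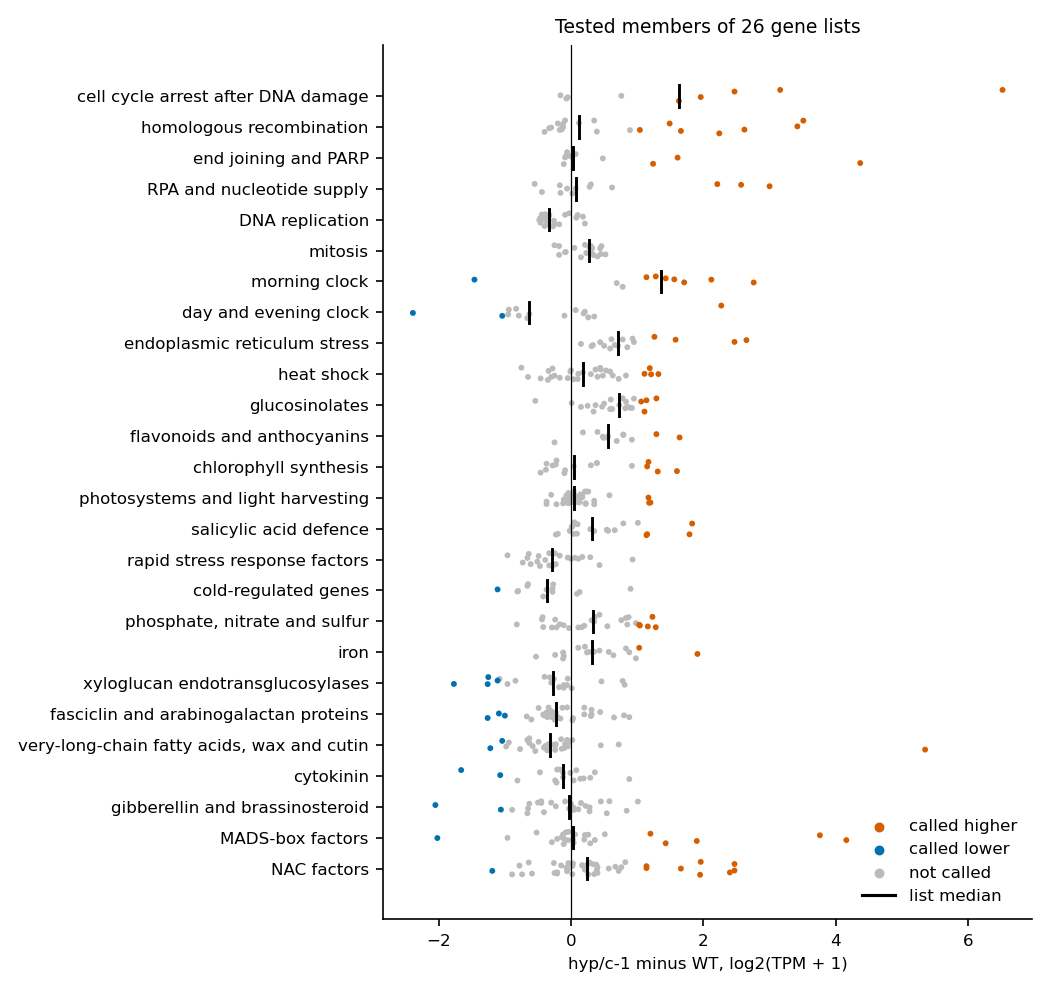
Each point is a tested member of 1 of 26 gene lists, placed by its difference between hyp/c-1 and WT on the log2(TPM + 1) scale and coloured by its call; black bars are list medians. Most medians lie near 0, while called members reach far to the right in the DNA damage lists; members that passed the expression minimum only through hyp/c-1 are included, 5 of 9 in the arrest list.

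Of the 563 genes called against WT, 32 also differed by the same rule from hyp/hyp, 21 higher in hyp/c-1 than in both other genotypes and 11 lower than in both. These 32 were described after their values were seen. Beside those given above, AT2G41250, a predicted haloacid dehalogenase-like hydrolase, was at 3.97, 3.28 and 2.77 TPM in WT and 16.3, 17.4 and 30.1 TPM in hyp/c-1 (a log2 difference of from WT 2.31, adjusted p = 7.79e-05), with 8.49 TPM on average in hyp/hyp. SK9, a SKP1-like gene, was at 0, 0.346 and 0.122 TPM in WT and 2.45, 3.61 and 2.34 TPM in hyp/c-1, and so at least 8.12-fold higher than WT, and averaged 0.173 TPM in hyp/hyp. Both were high in all 3 hyp/c-1 libraries. On the lower side, AT3G24420, an alpha/beta hydrolase, was at 15.9, 15.7 and 19.2 TPM in WT and 3.37, 3.09 and 1.41 TPM in hyp/c-1 (-2.35, adjusted p = 8.55e-05), with 8.6 TPM in hyp/hyp. AT1G30250, uncharacterized, was at 43.2, 47.5 and 41.9 TPM in WT and 9.99, 9.8 and 8.03 TPM in hyp/c-1 (-2.14, adjusted p = 4.51e-07), with 19.5 TPM in hyp/hyp. The other genes with the most negative differences were AT2G42170, annotated to the actin family, at -2.56, and AT1G19320, a thaumatin-like protein, at -2.1, neither called between the mutants. LUP1, which makes the triterpene lupeol, was at 18.2, 17.8 and 21.4 TPM in WT and 7.94, 6.18 and 5.84 TPM in hyp/c-1 (-1.4, adjusted p = 0.000163), with 16.1 TPM in hyp/hyp. AT3G24420 and AT1G30250 held a middle level in hyp/hyp, and LUP1 in hyp/hyp lay near WT.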

How the data were processed

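RNA sequencing was done on leaves, with 3 libraries per genotype; the labelled genotype gave the groups. The deposited table holds TPM, although its headers speak of gene counts. The submitters' processing notes list fastp 0.20.1, HISAT2 2.1.10, DESeq2 1.26.0 and the build TAIR10; the strand setting is not given in the sources used here, so a gene and an overlapping or antisense gene cannot be told apart. TPM times the whole gene span, introns included, gave whole reads for 99.98% of 191721 values to within 0.02 of a read, so the deposited TPM is lower for genes with long introns. Names and coordinates come from RefSeq TAIR10.1 (27433 genes matched).

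limma 3.58.1 under R 4.3.3 tested log2(TPM + 1) values (1 mean per genotype over 9 libraries, eBayes with trend, 6 residual degrees of freedom, two-sided, Benjamini-Hochberg over 17612 genes). This scale understates changes of genes near 1 TPM. Nothing says that libraries came from separate plants, so p-values measure only the spread between these samples. Floors cover counting error only. Lists are described by counts and medians, with no test. Python 3.11.15, pandas 2.3.3, numpy 2.4.6 and matplotlib 3.10.9 did the rest.

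1 gene of the repair list is not reported here by name. The members, lists and tests were chosen with earlier results of these data known. Named genes were ATXR5, ATXR6, the 8 highest and 8 lowest called genes without overlap, and up to 4 called members per list with the largest differences, or the most abundant member of a list without calls. Other list members given by name were chosen after their values were seen. The results were recomputed with another pseudocount, other expression minimums, other scalings, the 6 libraries alone, a replicate block, no trend, array weights, voom on recovered reads, the adjusted p-value alone, and without each library.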

Additional observations from a re-analysis of the deposited data

How the results depend on the processing

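The count of 563 called genes, 456 higher and 107 lower, stayed within 1.5 times under most settings. Of 144 named genes 131 were called, and none of these 131 changed direction under any setting. This does not cover the named genes that were not called, some of which had differences near 0. A pseudocount of 0.1 gave 164 lower genes and voom on the recovered reads gave 171. A mean of at least 5 TPM gave 354 calls, 286 higher and 68 lower, all shared with the 563, since fewer genes were tested. The adjusted p-value alone gave 3597, 1962 higher and 1635 lower. Leaving out 1 library at a time gave 491 to 650 calls, 409 to 494 higher and 72 to 156 lower. The replicate block gave 560 calls, 555 of them shared. Same-numbered hyp/c-1 and WT libraries deviated together with correlations of -0.2, -0.145 and 0.0116, so the numbers do not pair them. Of 2526 values of named genes under other settings, 109 in 37 genes no longer passed, 24 of them without hyp/c-1 replicate 3 and 22 with array weights. The causes were not tested. Depth limits genes near the floor of 3 reads.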
